A study of Homo sapiens with 16 samples.

Results

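The lines compared here are MDA-MB-231 and MCF10A, each grown without drug, on 8 of the study's 16 arrays. MCF10A is a human mammary epithelial line that became immortal in culture and forms no tumours. MDA-MB-231 is a human breast cancer line known for its mesenchymal shape, its lack of the oestrogen and progesterone receptors and an active RAS-MAPK pathway. MCF10A cells grew in DMEM/F12 medium with 17.5 mM glucose, 1 mM glutamine, 5% horse serum, insulin, epidermal growth factor (EGF), cholera toxin and hydrocortisone. The MDA-MB-231 cells had the same base medium and glucose, 2 mM glutamine, 10% fetal bovine serum and none of those 4 additions. Water was given as vehicle, and RNA was taken 24 h later from 4 cultures of each line, labelled A to D and run in parallel. The 8 other arrays hold the same lines with 50 mM 2-deoxy-glucose (2DG), a glucose analogue, since the series asks how glucose metabolism sets gene expression. No measured value chose the samples or decided which genes entered: every gene with a probe set of its own did, 19775 in all. The probe set of each gene was the one with the highest mean over the 16 arrays. Many of the genes named below were named for the size of their difference. Line and medium differed together throughout, so what each contributes to a difference cannot be told apart. Each group is 1 line, and its values stand for that line, not for healthy or cancerous breast tissue.

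Epithelial cells hold each other with adherens junctions built on E-cadherin, with desmosomes and with tight junctions, and they fill the cytoplasm with keratins. The basal cells of the mammary gland carry KRT5 and KRT14 and sit on a basement membrane, while the luminal cells carry KRT8, KRT18 and KRT19 and face the milk duct. In the epithelial-mesenchymal transition (EMT), repressors such as ZEB1, SNAI2 and TWIST1 shut off junction genes and matrix and migration genes come on. The ZEB factors and the microRNAs of the miR-200 and miR-205 families repress each other.

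Values are log2 RMA values of the authors, 1 probe set per gene, and n = 4 arrays per line throughout. A difference is the MDA-MB-231 mean minus the MCF10A mean, so that 1 stands for 2-fold, given ± its standard error (SE) from limma. Genes with an adjusted p under 0.05 (Benjamini-Hochberg, every gene included) are named called, and strongly called where the size of the difference was also at least 1. The printed value comes from the brightest probe set of a gene. Where a called gene had a mean across its probe sets that differed from this value by more than 1.5 times, that mean follows as the "probe set mean". Shared probe sets are those whose name marks them as matching several transcripts, and the value without them is given where it ends a call, as is the value with arrays centred on ribosomal protein genes ("ribosomal centring"). RMA flattens values near the bottom of the scale, so differences into or out of it are understated.

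The arrays of a line lay close together, with a median SD of 0.0759 per gene in MCF10A and 0.0858 in MDA-MB-231. The ratio of 3' to 5' actin control probe sets, which reflects how intact the RNA is, ranged from 0.34 to 0.49 (log2) in MCF10A and from 0.38 to 0.47 in 3 MDA-MB-231 arrays, but stood at 1.09 in replicate B of MDA-MB-231. The mean ratios were 0.392 ± 0.067 (SD, n = 4) and 0.598 ± 0.331, with an exact two-sided permutation p of 0.286, where 4 against 4 can give no less than 0.0286. Without replicate B, 1306 genes were strongly called higher and 1250 lower, beside 1337 and 1225 with it.

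Most genes differed between the lines, by small steps in the main. Of 19775 genes, 5776 (29.2%) were called higher in MDA-MB-231 and 5305 (26.8%) lower, together 11081 or 56%. The strong calls numbered 1337 higher (6.76%) and 1225 lower (6.19%), together 2562 or 13%. Counts of called members in the gene lists below are to be read beside these shares. The values of the lines did not overlap for 10421 genes (52.7%). By at least 32-fold, 60 genes were higher and 73 lower. When each array was instead centred on its ribosomal protein genes, all differences shifted by -0.16, and 4279 genes were called higher against 9518 lower, so higher genes made up 31.01% of calls in place of 52.13%. In RNA of whole cultures, fewer cells with a transcript and less of it per cell cannot be told apart.

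**Figure D1:**
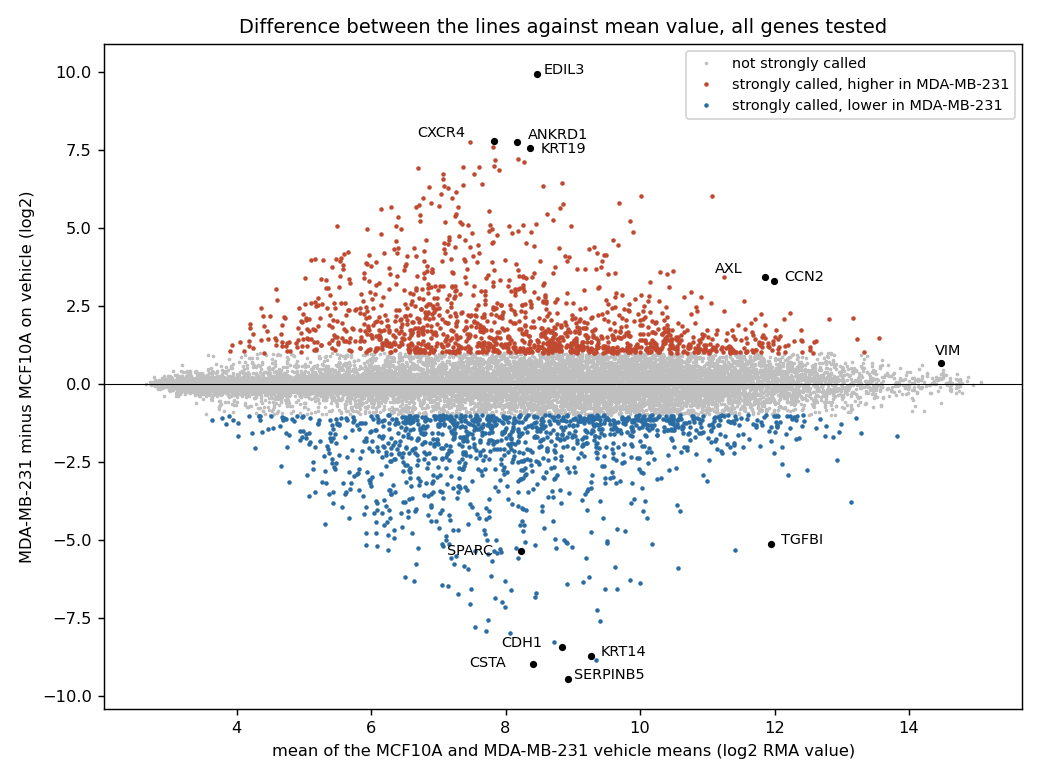
Difference between the lines (MDA-MB-231 minus MCF10A on vehicle, log2) against the mean of the line means (log2 RMA value) for 19775 genes, 1 point per gene; colours mark the 1337 genes strongly called higher and the 1225 strongly called lower, and black points the genes with names. EDIL3 lies highest at 9.93 and SERPINB5 lowest at -9.445.

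The gene furthest up in MDA-MB-231 was EDIL3, a secreted integrin ligand known from vessel development. Its values were 3.40, 3.28, 3.71 and 3.64 in MCF10A against 13.42, 13.48, 13.46 and 13.40 in MDA-MB-231, a difference of 9.93 ± 0.092 (adjusted p = 5.06e-20) or 977-fold, with a probe set mean of 4.71. CXCR4, the receptor of the chemokine CXCL12 and known for its part in the spread of breast cancer cells, stood at 3.88, 3.78, 4.10 and 4.00 against 11.66, 11.81, 11.67 and 11.78, a difference of 7.79 ± 0.0631. GJA1, a connexin of gap junctions, went from 3.52, 3.67, 3.55 and 3.64 to 11.38, 11.35, 11.36 and 11.30, a difference of 7.75 ± 0.0733. All of these genes sat near the bottom of the scale in every MCF10A array. BCAT1, which breaks down branched-chain amino acids, differed by 7.21 ± 0.15, and IGFBP1, an insulin-like growth factor binding protein, by 7.12 ± 0.112 with a probe set mean of 3.57. COX7B2, a testis form of a respiratory chain subunit, differed by 7.0 ± 0.129. PRTFDC1, a relative of the purine salvage enzyme HPRT, differed by 6.97 ± 0.0949, and CEP15, a centrosomal protein, by 7.61 ± 0.109 with a probe set mean of 4.34.

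At the other end stood genes of epithelial and squamous cells. SERPINB5, which encodes the tumour suppressor maspin, was at 13.64, 13.63, 13.71 and 13.60 in MCF10A and at 3.90, 4.20, 4.39 and 4.31 in MDA-MB-231. The difference was -9.445 ± 0.099 (adjusted p = 2.12e-19), or 697-fold, with a probe set mean of -6.05. CD109, a membrane protein of basal epithelial cells that binds TGF-beta, differed by -7.975 ± 0.154 (probe set mean -5.03), and BNC1, a zinc finger factor of stratified epithelia, by -7.93 ± 0.142. SFRP1, a secreted inhibitor of Wnt signals, stood between 12.96 and 12.99 in MCF10A and between 5.53 and 5.94 in MDA-MB-231, a difference of -7.25 ± 0.0851 (probe set mean -4.55). MPZL2, an adhesion molecule of epithelia, differed by -7.555 ± 0.0857. NETO2, a partner of kainate receptors, differed by -8.26 ± 0.124, and HS6ST2, which adds sulphate to heparan chains, by -7.805 ± 0.12. The remaining genes among the 12 furthest up and the 12 furthest down are given with their families below.

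Adhesion genes of epithelial cells were lower in MDA-MB-231. Of 18 listed adhesion genes, 16 had a value: 13 were called lower and none higher, with a median difference of -1.51 beside 0 over all genes. CDH1, E-cadherin, read 13.03, 13.08, 13.06 and 13.06 in MCF10A and 4.33, 4.53, 4.80 and 4.81 in MDA-MB-231, a difference of -8.44 ± 0.0894 (adjusted p = 2.19e-19) or 347-fold. CDH3, the P-cadherin of basal cells, read 12.30, 12.31, 12.39 and 12.27 against 5.89, 6.19, 6.10 and 5.73, a difference of -6.34 ± 0.0807. JUP, plakoglobin, which ties cadherins to the cytoskeleton in adherens junctions and desmosomes, differed by -4.39 ± 0.11. The size of the difference varied from gene to gene. EPCAM, an adhesion molecule of nearly all simple epithelia, was at 12.18, 12.17, 12.21 and 12.16 in MCF10A and still at 10.06, 10.13, 10.14 and 10.10 in MDA-MB-231, a difference of -2.07 ± 0.0401 (adjusted p = 1.55e-16).

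Among 13 desmosome genes, 9 were lower, all strongly, and 1 was higher, with a median of -2.22. The desmosomal cadherins DSC3 and DSG3, which basal keratinocytes carry, had differences of -6.57 ± 0.103 and -5.39 ± 0.194. DSC3 stood between 10.75 and 10.77 in MCF10A and between 3.88 and 4.39 in MDA-MB-231, so that no array of a line came near the other line. DSP, desmoplakin, which anchors keratin filaments, was lower but far from the bottom, at 13.11, 13.10, 13.02 and 13.13 against 10.91, 10.95, 10.76 and 10.91, a difference of -2.21 ± 0.0429. DST, dystonin, was the member called higher, by 1.35 ± 0.0468. Its 10 probe sets went opposite ways, with a probe set mean of -0.06 and a value of -3.535 on the brightest probe set without the shared kind, so no direction is given for the gene.

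Tight junction and polarity genes were lower in 11 and higher in 3 of 16 members with a value, with a median of -0.965. CLDN1, a sealing claudin, read 11.48, 11.43, 11.48 and 11.44 in MCF10A and 6.44, 6.22, 6.55 and 6.29 in MDA-MB-231, a difference of -5.08 ± 0.0582. MARVELD2, the tricellulin of junctions where 3 cells meet, differed by -2.365 ± 0.0347, and PATJ, a scaffold of the Crumbs polarity complex, by -3.315 ± 0.0894 with a probe set mean of -1.24. Without shared probe sets PATJ stood at -0.1075 and was not called. CLDN7 read 10.87, 10.99, 10.92 and 10.89 against 9.23, 9.24, 9.28 and 9.25, a difference of -1.67 ± 0.0386. CRB3, the epithelial Crumbs protein that marks the apical side, differed by -1.12 ± 0.0619. CLDN4 was not called, at -0.045 (adjusted p = 0.626), though it was with ribosomal centring (-0.205). PARD6B, a polarity adaptor, went the other way with 1.62 ± 0.081, CLDN3 with 0.32 ± 0.0871 and overlapping values, and CLDN12 with 0.14 ± 0.0419, which turned to -0.02 with ribosomal centring, where CLDN3 was no longer called either (0.16).

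The promoters of junction genes are known targets of the EMT repressors, which bind the E-box letters CAGGTG or their reverse complement CACCTG. Windows of 250 bases before the start of transcription (RefSeq, GRCh38.p14) are shown for 3 genes called lower, with these letters in capitals. CLDN7, CDH1, EPCAM and ESRP2 were fixed for display, but CDH1 and EPCAM had no window in the reference used and ESRP2 had no value. CRB3 and DSP were added after values were seen because their windows hold more than 1 such motif. CLDN7 lies on the minus strand of chromosome 17 and has a pair of starts: the window chr17:7262479-7262728 holds 4 motifs, and that of the other start holds none. CRB3 is on the plus strand, with the window chr19:6464021-6464270 and 5 motifs, and DSP on the plus strand, with chr6:7541421-7541670 and 2.
CLDN7: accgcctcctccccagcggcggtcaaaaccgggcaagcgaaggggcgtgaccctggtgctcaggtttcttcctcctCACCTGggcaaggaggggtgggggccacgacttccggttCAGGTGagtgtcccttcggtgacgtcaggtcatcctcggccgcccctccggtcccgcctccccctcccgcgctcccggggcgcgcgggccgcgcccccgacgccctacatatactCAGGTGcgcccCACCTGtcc
CRB3: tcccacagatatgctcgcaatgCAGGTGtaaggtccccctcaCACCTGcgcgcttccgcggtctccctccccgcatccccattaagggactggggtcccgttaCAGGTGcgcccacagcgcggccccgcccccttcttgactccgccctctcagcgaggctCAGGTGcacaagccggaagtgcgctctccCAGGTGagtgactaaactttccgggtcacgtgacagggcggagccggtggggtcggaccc
DSP: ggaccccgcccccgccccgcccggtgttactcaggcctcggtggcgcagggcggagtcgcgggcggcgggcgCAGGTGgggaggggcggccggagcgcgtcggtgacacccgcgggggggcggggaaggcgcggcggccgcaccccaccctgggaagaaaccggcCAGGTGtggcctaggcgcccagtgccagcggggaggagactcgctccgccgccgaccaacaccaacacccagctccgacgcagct
Of all 35116 RefSeq windows of this length, 17.49% held at least 1 E-box of these letters on either strand. The share was 16.84% for genes tested here, 21.88% for those strongly lower in MDA-MB-231 and 13.96% for those strongly higher. For the members of the lists of adhesion, desmosome, tight junction and regulator genes it was 18 of 59 windows, or 30.51%. Median GC content was 62% for genes tested and 65.2% for these lists. A match of letters is a description of the window and shows no binding.

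Regulators of the epithelial state went with the junction genes in most cases. Of 15 with a value, 10 were lower, 9 of them strongly, and 2 were higher, with a median of -1.65. ESRP1, which controls the epithelial splice forms of many genes, read 11.06, 10.91, 11.08 and 10.97 in MCF10A and 3.80, 3.94, 4.10 and 3.93 in MDA-MB-231, a difference of -7.06 ± 0.105 (adjusted p = 8e-18) or 134-fold. TFAP2A, a factor of ectoderm and mammary cells, differed by -4.08 ± 0.033 (probe set mean -2.14), and GRHL3, a Grainyhead factor of the skin barrier, by -3.77 ± 0.143. GRHL2 was at or below 4.67 in all 8 arrays, with no call (0.11, adjusted p = 0.222), though it was called without replicate C of MCF10A (0.19). OVOL1 was not called on its brightest probe set (-0.10, adjusted p = 0.304), but was called lower by the mean of its probe sets (-0.44) and with ribosomal centring (-0.26). KLF4 and EHF, factors of differentiated epithelium, were higher in MDA-MB-231, by 0.96 ± 0.0536 and 0.735 ± 0.0581 (probe set mean 0.48 for EHF). KLF4 read 9.79, 9.77, 9.93 and 9.83 in MCF10A and 10.70, 10.95, 10.76 and 10.76 in MDA-MB-231, with no overlap.

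**Figure D2:**
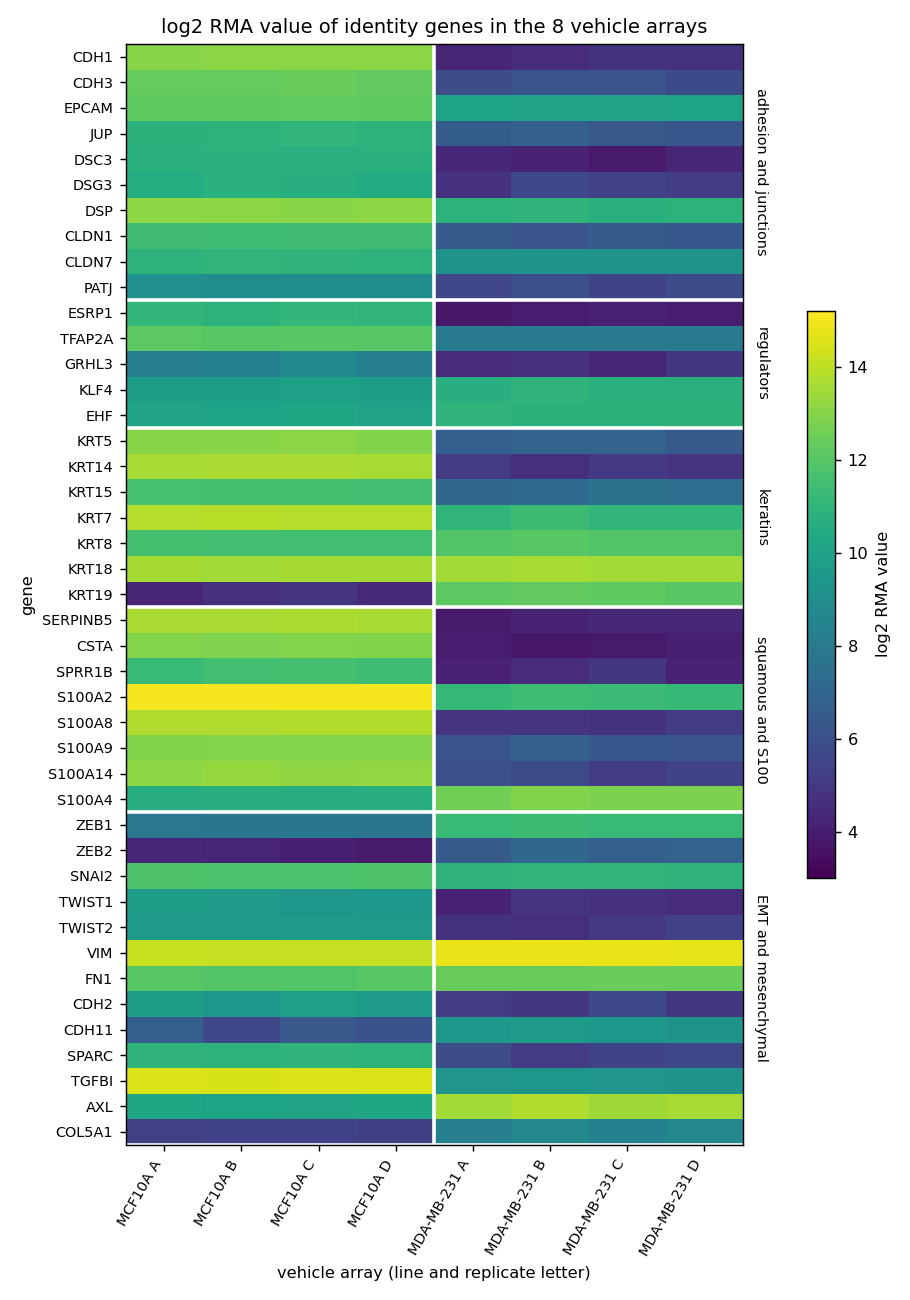
log2 RMA values (colour) of identity genes (rows, grouped by role) in the 4 MCF10A and the 4 MDA-MB-231 vehicle arrays (columns); colours are to be compared along a row, not between rows. CDH1, DSC3 and ESRP1 are dark in all MDA-MB-231 arrays, KRT19 and ZEB2 in all MCF10A arrays, and TWIST1, CDH2 and SPARC are dark in MDA-MB-231.

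Keratins split by their usual partners. All 6 keratins of basal and stratified epithelium with a value were lower, 5 of them strongly, with a median of -3.46. KRT14 read 13.61, 13.66, 13.65 and 13.60 in MCF10A and 5.13, 4.63, 5.04 and 4.84 in MDA-MB-231, a difference of -8.72 ± 0.115 (adjusted p = 1.84e-18) or 422-fold. Its partner KRT5 read 13.01, 13.01, 13.08 and 12.90 against 6.64, 6.89, 6.88 and 6.45, a difference of -6.285 ± 0.17, and KRT15, of basal keratinocytes, differed by -4.29 ± 0.104. Both keratins of the KRT5 and KRT14 filament were thus lower in every MDA-MB-231 array than in any MCF10A array.

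The keratins of simple epithelium did not follow. Of 6, 3 were higher and 1 lower, with a median of 0.22. KRT18 was not called, at 13.56, 13.52, 13.54 and 13.54 against 13.50, 13.58, 13.52 and 13.49, a difference of -0.02 ± 0.0364 (adjusted p = 0.727), but was called lower with ribosomal centring (-0.18). Its partner KRT8 was higher by 0.39 ± 0.0527, with 12.07 in replicate B of MDA-MB-231 and 11.88 to 11.91 in the others. KRT19, the smallest keratin and a marker of luminal cells, read 4.28, 4.68, 4.90 and 4.47 in MCF10A and 12.13, 12.25, 12.16 and 12.06 in MDA-MB-231, a difference of 7.57 ± 0.118 (adjusted p = 1.26e-17) or 190-fold. Its other probe set differed by 0.10, which gives a probe set mean of 3.83. KRT80 was higher by 2.02 ± 0.0624, and KRT7 lower at -2.74 ± 0.065 with a probe set mean of -1.26. MDA-MB-231 thus read lower than MCF10A in the keratins of basal cells but not in KRT8, KRT18 and KRT19.

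Attachment to the basement membrane through hemidesmosomes rests on the integrin ITGA6 with ITGB4, on a laminin of the membrane and on plakins. Of 10 members with a value, 6 were lower and 3 higher, with a median of -0.385. Among the 3 is DST, for which no direction is given above. ITGB4 read 10.33, 10.38, 10.32 and 10.41 in MCF10A and 7.27, 7.66, 7.57 and 7.67 in MDA-MB-231, a difference of -2.82 ± 0.0876 with a probe set mean of -0.88; without shared probe sets its value was 0.095 (adjusted p = 0.383). ITGA6 was lower at -0.58 ± 0.0581, LAMB3, one of its laminin chains, at -0.99 ± 0.0728, and FERMT1, an activator of integrins in epithelia, at -1.17 ± 0.0422. PLEC, plectin, was higher by 0.46 ± 0.0606. COL7A1, the collagen of anchoring fibrils, was called higher by 0.215 ± 0.0657 with values that overlapped, a call lost without shared probe sets (0.145), with ribosomal centring (0.055) and with the actin ratio as a covariate (0.15).

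Genes of squamous differentiation, the programme of skin and other stratified linings, were lower in 20 and higher in 1 of 23 members, 16 of the lower ones strongly, with a median of -2.14. CSTA, cystatin A, a protease inhibitor of the cornified envelope, read 12.92, 12.84, 12.93 and 12.91 in MCF10A and 3.93, 3.77, 3.89 and 4.07 in MDA-MB-231, a difference of -8.985 ± 0.051 (adjusted p = 2.83e-22) or 507-fold. SPRR1B, a small proline-rich protein of that envelope, read 11.27, 11.50, 11.59 and 11.40 against 4.10, 4.56, 5.00 and 4.17, a difference of -6.98 ± 0.196. The called exception was CNFN, cornifelin, at 0.36 ± 0.0872, which sat between 6.10 and 6.85 in all 8 arrays.

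The S100 genes encode small calcium-binding proteins, many of them abundant in stratified epithelium. Of 19, 12 were lower and 2 higher, with a median of -1.36. S100A8 read 13.73, 13.74, 13.79 and 13.79 in MCF10A and 4.85, 4.90, 4.79 and 5.15 in MDA-MB-231, a difference of -8.84 ± 0.107 (adjusted p = 6.87e-19) with a probe set mean of -5.37. Its partner S100A9, with which it forms calprotectin, read 12.90, 12.95, 12.95 and 12.93 against 6.15, 6.73, 6.37 and 6.23, a difference of -6.56 ± 0.153. S100A14 read 13.11, 13.25, 13.18 and 13.23 against 5.98, 5.80, 5.15 and 5.48, a difference of -7.59 ± 0.15. The 2 members called higher were S100A4 and S100A6. S100A4, also called metastasin, read 10.62, 10.64, 10.72 and 10.69 in MCF10A and 12.56, 12.90, 12.79 and 12.80 in MDA-MB-231, a difference of 2.095 ± 0.0567. S100A6 differed by 0.195 ± 0.0299 with a probe set mean of 0.63, and was not called with ribosomal centring (0.035).

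Neighbours on a chromosome shared these differences in some places. In the RefSeq order of 19704 placed genes, there were 9 runs of at least 4 adjacent genes that were all strongly called the same way, 5 higher and 4 lower. How many runs chance alone would give was not worked out. A run of 5 zinc finger genes was higher, by 1.005 to 2.26. A run of 5 lower genes was S100A3, S100A2, S100A16, S100A14 and S100A13, with differences of -1.67, -3.77, -1.57, -7.59 and -1.115 and a probe set mean of -0.60 for S100A13. Another held SPRR1A, SPRR3, SPRR1B and SPRR2B, from -6.98 to -2.91, whose sequences are alike enough that probe sets may share signal. The S100 and SPRR runs lie in the epidermal differentiation complex, a cluster of skin barrier genes. Among higher genes, the run ARMCX1, ARMCX6, ARMCX3 and ARMCX2, a family of armadillo-repeat proteins on the X chromosome, had differences of 6.97, 6.45, 4.56 and 6.74, with a probe set mean of 3.285 for ARMCX6. ARMCX1 read 3.39, 4.10, 3.95 and 4.09 in MCF10A and 10.82, 10.94, 10.84 and 10.82 in MDA-MB-231. Members of these runs that the naming rule did not give were chosen after their values were seen.

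The transcription factors of EMT did not all differ the same way. Of 15 with a value, 5 were higher, all strongly, and 7 lower, with a median of -0.12. ZEB1 read 7.84, 7.68, 7.78 and 7.69 in MCF10A and 11.25, 11.37, 11.27 and 11.27 in MDA-MB-231, a difference of 3.54 ± 0.0557 (adjusted p = 1.35e-17). ZEB2 read 4.40, 4.26, 4.05 and 3.89 against 6.45, 7.05, 6.63 and 6.86, a difference of 2.60 ± 0.116 with a probe set mean of 0.84. SOX9, a factor of stem and cartilage cells, was higher by 1.73 ± 0.0557. The ZEB pair was thus higher in all MDA-MB-231 arrays.

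TWIST1, TWIST2 and FOXC2 went the other way. TWIST1 read 9.85, 9.69, 9.44 and 9.49 in MCF10A and 4.23, 4.90, 4.74 and 4.55 in MDA-MB-231, a difference of -5.01 ± 0.141 (adjusted p = 1.6e-14). TWIST2 read 9.56, 9.67, 9.70 and 9.60 against 4.81, 4.63, 5.04 and 5.37, a difference of -4.67 ± 0.11 with a probe set mean of -2.94, and FOXC2 differed by -3.185 ± 0.0994 with a probe set mean of -1.64. SNAI2, or Slug, which basal mammary cells normally carry, was high in both lines and lower in MDA-MB-231, at 11.77, 11.74, 11.76 and 11.79 against 10.94, 10.99, 10.97 and 10.95, a difference of -0.80 ± 0.0317. SNAI1 was not called (-0.12, adjusted p = 0.276), but was with ribosomal centring (-0.28). MCF10A therefore had more of TWIST1, TWIST2, FOXC2 and SNAI2 RNA, and MDA-MB-231 more of ZEB1, ZEB2 and SOX9.

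**Figure D3:**
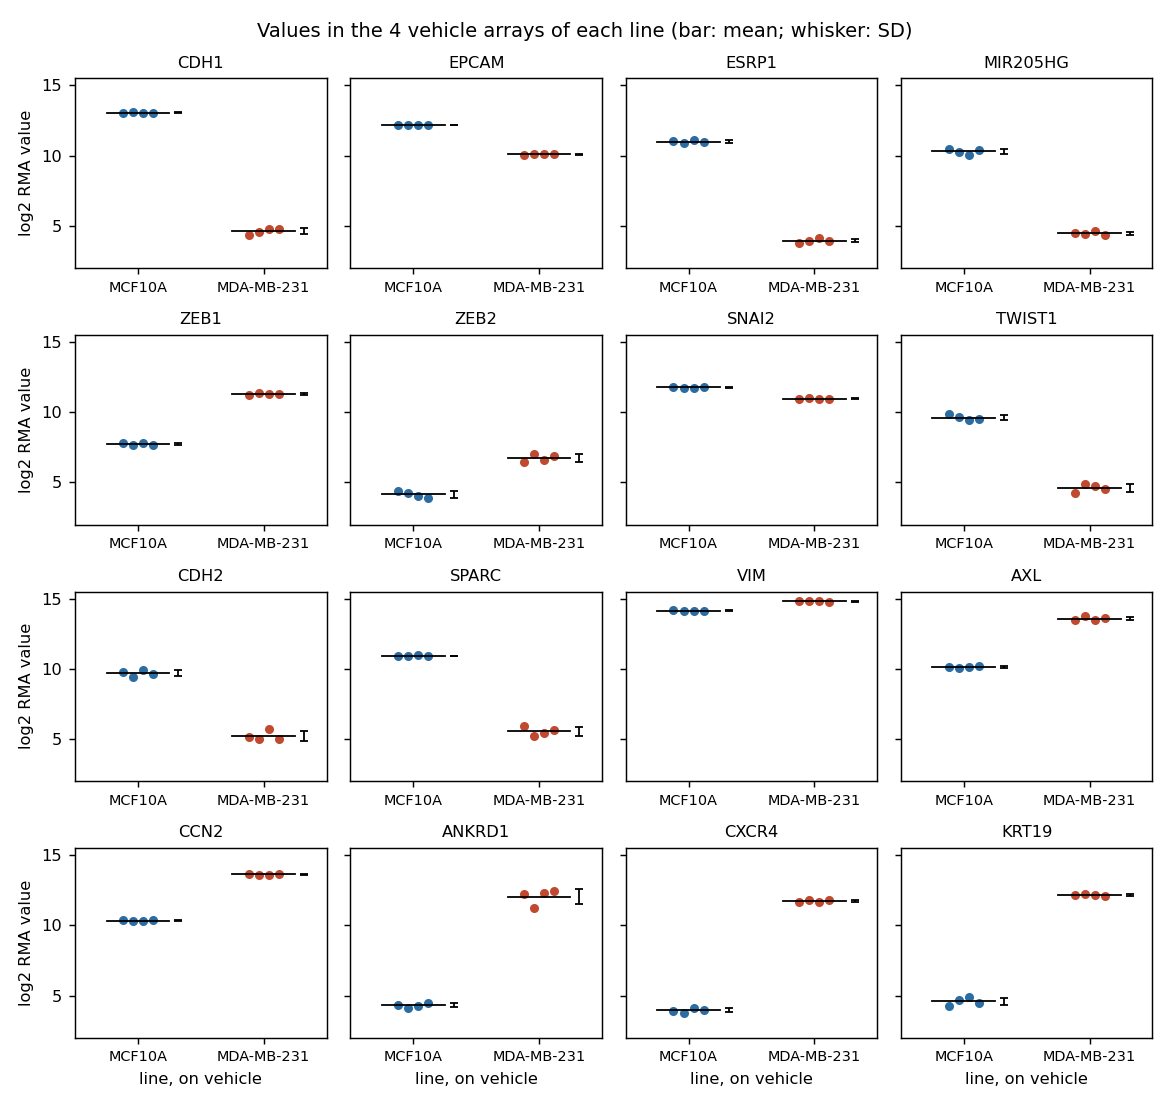
log2 RMA values (vertical axis) of 16 genes in the 4 vehicle arrays of MCF10A (blue) and MDA-MB-231 (red); points are arrays, bars the means and whiskers the SD. CDH1, ESRP1, MIR205HG, TWIST1, CDH2 and SPARC are lower in MDA-MB-231, and ZEB1, ZEB2, AXL, CCN2, ANKRD1, CXCR4 and KRT19 higher, with no overlap between the lines.

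The host transcripts of epithelial microRNAs were lower in MDA-MB-231. MIR205HG, from which miR-205 is cut, read 10.50, 10.27, 10.05 and 10.38 in MCF10A and 4.49, 4.43, 4.62 and 4.35 in MDA-MB-231, a difference of -5.83 ± 0.12 (adjusted p = 3.22e-16). MIR200CHG, from which miR-200c and miR-141 are cut, read 6.70, 6.90, 6.88 and 6.97 against 6.24, 6.08, 6.26 and 6.13, a difference of -0.685 ± 0.0675. Its only probe set is of the shared kind, and its MDA-MB-231 values lay around the median of all values, 6.19. These arrays read the host RNA; the mature microRNAs were not measured. Both host genes were chosen after their values were seen. The mature sequences (RefSeq, GRCh38.p14; chr1:209432166-209432187, chr12:6963742-6963764 and chr12:6964155-6964176, all plus strand) are shown because ZEB1 and ZEB2 are textbook targets of these microRNAs, with the seed, bases 2 to 8, in capitals.
hsa-miR-205-5p: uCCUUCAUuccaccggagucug
hsa-miR-200c-3p: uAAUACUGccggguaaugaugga
hsa-miR-141-3p: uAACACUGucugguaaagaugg
None of the 3 seeds is shared: those of miR-200c and miR-141 read AAUACUG and AACACUG, and that of miR-205 reads CCUUCAU.

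Mesenchymal markers went both ways in nearly equal number. Of 32, 14 were higher and 12 lower, with a median of 0.0487, which turned to -0.11 with arrays centred on ribosomal protein genes. The list therefore gave no single direction. AXL, a receptor kinase of mesenchymal tumour cells, read 10.15, 10.06, 10.14 and 10.19 in MCF10A and 13.51, 13.74, 13.47 and 13.60 in MDA-MB-231, a difference of 3.445 ± 0.053 (adjusted p = 1.17e-17). CDH11, the cadherin of bone and fibroblast-like cells, was higher by 3.26 ± 0.184, and COL5A1, a chain of fibrillar collagen, by 3.13 ± 0.166. Vimentin, VIM, the intermediate filament of mesenchymal cells, was near the top of the scale in both lines, at 14.17, 14.15, 14.15 and 14.11 against 14.84, 14.83, 14.81 and 14.77, a difference of 0.67 ± 0.0311 with a probe set mean of 1.60. Fibronectin, FN1, was higher by 0.405 ± 0.0445.

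Some of the genes most often used as mesenchymal markers were higher in MCF10A. CDH2, N-cadherin, read 9.79, 9.39, 9.89 and 9.65 in MCF10A and 5.14, 4.99, 5.70 and 4.99 in MDA-MB-231, a difference of -4.475 ± 0.139 (adjusted p = 5.4e-14). SPARC, osteonectin, a matrix glycoprotein, read 10.92, 10.89, 10.95 and 10.90 against 5.90, 5.19, 5.44 and 5.66, a difference of -5.37 ± 0.112. TGFBI, a matrix protein induced by TGF-beta, read 14.53, 14.48, 14.55 and 14.50 against 9.38, 9.47, 9.35 and 9.28, a difference of -5.145 ± 0.0391. No array of one line reached the values of the other for any of these genes. CD44, the hyaluronan receptor, was called lower, at -0.08 ± 0.0305 (adjusted p = 0.0352). The call was lost on the 8 vehicle arrays alone, with its probe set mean, without shared probe sets and without any 1 of 5 single arrays (replicates A, C and D of MCF10A, A and C of MDA-MB-231; -0.0825 to -0.0708), and its 13 probe sets ranged from -1.615 to 0.72, so no direction is given.

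Luminal markers were mixed. Of 18 with a value, 5 were higher and 7 lower, with a median of -0.0188. Calls made up 66.67% of the list, beside 56.04% over all genes. CD24, a surface glycoprotein of luminal cells, read 14.09, 14.04, 14.06 and 14.09 in MCF10A and 8.79, 8.94, 8.75 and 8.51 in MDA-MB-231, a difference of -5.32 ± 0.0764. MUC1, a mucin of the apical face, differed by -4.75 ± 0.0656, and FOXA1, a factor that opens chromatin for the oestrogen receptor, by -2.22 ± 0.206. GATA3, which keeps luminal cells differentiated, was lower at -0.85 ± 0.0348. ESR1, the oestrogen receptor, was not called, at 6.50 to 6.56 in MCF10A and 6.46 to 6.56 in MDA-MB-231 (-0.01, adjusted p = 0.935). AGR2, a disulphide isomerase of mucus-secreting cells, was higher by 2.875 ± 0.0571 with a probe set mean of 1.60, SPDEF, its partner in secretory cells, by 1.07 ± 0.0769 (probe set mean 0.68), and TFF1, a trefoil peptide, by 0.955 ± 0.161.

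Proteases that cut the matrix, and their inhibitors, were higher in 11 and lower in 9 of 24 members. ADAMTS1, which cuts versican, read 7.50, 7.35, 7.35 and 7.53 in MCF10A and 11.61, 11.51, 11.52 and 11.57 in MDA-MB-231, a difference of 4.12 ± 0.101. TIMP4, an inhibitor of metalloproteinases, was higher by 3.30 ± 0.128, and PLAT, the tissue plasminogen activator, by 1.66 ± 0.0606. Its relative PLAU, urokinase, was higher by 0.66 ± 0.0382. MMP1, the interstitial collagenase, was higher by 1.46 ± 0.10, at 5.92 to 6.27 against 7.47 to 7.85, and MMP14, a membrane-bound collagenase, by 0.37 ± 0.0824. MMP9, a gelatinase, was lower, at 12.06, 11.95, 12.04 and 12.09 in MCF10A against 6.91, 7.28, 7.09 and 6.67, a difference of -5.05 ± 0.122. MMP10, a stromelysin, and CTSV, a lysosomal cathepsin, were lower at -3.41 ± 0.126 and -3.01 ± 0.0582. The list as a whole thus gave no single direction (median -0.0525; 11 higher and 12 lower with ribosomal centring).

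The coactivators YAP (gene YAP1) and TAZ (gene WWTR1) carry signals of cell shape and contact to the nucleus, where they bind TEAD factors. Their RNA differed little: YAP1 was lower at -0.22 ± 0.0437 and WWTR1 higher by 0.41 ± 0.0388. Of 23 listed targets, 19 were called higher, 9 of them strongly, and 4 lower, with a median of 0.855 that stayed at 0.695 after centring on ribosomal protein genes. ANKRD1, a muscle ankyrin repeat protein and a standard YAP readout, read 4.33, 4.12, 4.28 and 4.47 in MCF10A and 12.26, 11.24, 12.29 and 12.43 in MDA-MB-231, a difference of 7.755 ± 0.204 (adjusted p = 6.79e-15). CCN2, a secreted matrix regulator, read 10.40, 10.29, 10.33 and 10.35 against 13.69, 13.60, 13.61 and 13.68, a difference of 3.30 ± 0.0502. Its relative CCN1 read 11.75, 11.77, 11.78 and 11.79 against 13.85, 13.83, 13.79 and 13.92, a difference of 2.075 ± 0.0466. IGFBP3, an insulin-like growth factor binding protein, was higher by 4.40 ± 0.06.

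The targets called lower differed by small steps. FOXF2, a forkhead factor, was lower at -0.55 ± 0.0413, DOCK5, a RAC activator, at -0.51 ± 0.0481 with a probe set mean of -0.26, and F3, tissue factor, at -0.32 ± 0.0537. The list holds AXL and IGFBP3, which other pathways also set. TEAD factors bind the letters GGAATG or, on the other strand, CATTCC. The windows of ANKRD1 (minus strand, chr10:90921088-90921337, 2 motifs) and CCN2 (minus strand, chr6:131951373-131951622, 3 motifs) are shown, with these letters in capitals, as targets that stood among the highest and hold more than 1 motif; they were chosen after values were seen.
ANKRD1: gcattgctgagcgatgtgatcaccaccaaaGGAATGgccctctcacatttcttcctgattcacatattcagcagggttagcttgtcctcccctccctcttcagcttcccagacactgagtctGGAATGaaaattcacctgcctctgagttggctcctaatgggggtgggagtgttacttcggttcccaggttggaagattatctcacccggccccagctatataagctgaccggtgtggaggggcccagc
CCN2: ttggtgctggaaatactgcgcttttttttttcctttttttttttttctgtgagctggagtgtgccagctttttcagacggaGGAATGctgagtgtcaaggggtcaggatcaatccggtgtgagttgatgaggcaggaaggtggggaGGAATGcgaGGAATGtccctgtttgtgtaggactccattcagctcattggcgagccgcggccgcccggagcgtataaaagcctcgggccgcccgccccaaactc
These letters were in 11.89% of all windows, in 10.6% of those of genes tested, in 11.03% of windows of genes strongly higher in MDA-MB-231 and in 9.32% of those strongly lower. Of 20 windows of the listed targets, 8 held them (40%). The list was drawn from genes known as YAP or TEAD targets, so the share describes the list.

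Growth factor ligands were higher in 14 and lower in 7 of 30 members, 11 and 4 of them strongly. BMP4, a bone morphogenetic protein, read 6.19, 6.19, 5.89 and 6.05 in MCF10A and 11.43, 11.30, 11.35 and 11.28 in MDA-MB-231, a difference of 5.26 ± 0.0816. NRG1, neuregulin, the ligand of ERBB3, differed by 4.87 ± 0.0737 with a probe set mean of 1.48, and IL11, a cytokine of the IL6 family linked to bone metastasis, by 4.515 ± 0.0811. BTC, betacellulin, which binds EGFR, was lower at -2.85 ± 0.123, FGF2 at -2.405 ± 0.153, and GDF15, a stress hormone, at -1.38 ± 0.058 with a probe set mean of -0.50; without shared probe sets GDF15 stood at -0.04 and was not called. The median of the list was 0.0638 and turned to -0.0963 with ribosomal centring, where 13 were called each way.

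Receptor kinases were higher in 10 and lower in 6 of 25 members, which turned to 6 and 10 with ribosomal centring (median 0.065 against -0.095). Called members were 64% of the list, beside 56.04% over all genes. MERTK, a relative of AXL that senses dying cells, was higher by 4.355 ± 0.114 with a probe set mean of 2.31; without shared probe sets it stood at -0.04 (adjusted p = 0.792). ROR1, a receptor of Wnt ligands, was higher by 2.595 ± 0.0658. FGFR3 was lower at -2.88 ± 0.0779 (probe set mean -1.48), MST1R, the receptor RON of epithelia, at -2.08 ± 0.0982, and ERBB3 at -1.38 ± 0.0701 (probe set mean -0.55). The receptors most often studied in these lines differed little. EGFR was higher by 0.30 ± 0.0628, MET by 0.21 ± 0.0342 with a probe set mean of 0.05, and ERBB2 lower, at -0.30 ± 0.0498. The calls of EGFR and MET were lost with ribosomal centring (0.14 and 0.0525), and that of MET also with its probe set mean.

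Genes that the MAPK pathway turns on were higher as a rule: 17 of 24 were higher, 12 of them strongly, and 6 lower, with a median of 0.845. ETV1, an ETS factor that ERK signals raise, read 8.25, 8.14, 8.11 and 8.25 in MCF10A and 11.04, 11.06, 11.12 and 11.16 in MDA-MB-231, a difference of 2.91 ± 0.0601 with a probe set mean of 1.79. The feedback inhibitors SPRY1 and SPRY2 were higher by 2.40 ± 0.0633 and 1.735 ± 0.034. CCND1, cyclin D1, was higher by 1.25 ± 0.046. Some members were lower. FOS read 8.17, 8.10, 8.04 and 8.09 in MCF10A and 6.04, 6.19, 6.17 and 6.12 in MDA-MB-231, a difference of -1.97 ± 0.0664, EGR1 differed by -1.125 ± 0.0851, DUSP1, a phosphatase of MAP kinases, by -1.89 ± 0.0376 (probe set mean -1.11), and MYC by -0.80 ± 0.0367. EGF was in the MCF10A medium and not listed for that of MDA-MB-231, and its part in these values was not tested.

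Inflammatory cytokines and NF-kB targets were lower in MDA-MB-231. Of 30, 22 were lower, 14 of them strongly, and 3 higher, with a median of -0.945. CXCL1, a chemokine that draws neutrophils, read 11.95, 12.03, 11.97 and 12.01 in MCF10A and 6.42, 6.25, 6.25 and 6.69 in MDA-MB-231, a difference of -5.59 ± 0.157. CXCL8, interleukin 8, read 11.79, 11.73, 11.77 and 11.76 against 7.95, 7.98, 8.08 and 8.28, a difference of -3.69 ± 0.0589. IL1B, interleukin 1 beta, differed by -4.99 ± 0.0716, and IL1A, interleukin 1 alpha, by -7.15 ± 0.14 with a probe set mean of -3.53; without shared probe sets IL1A stood at 0.0875 (adjusted p = 0.705). Besides CXCR4, the members called higher were CSF1, the macrophage growth factor, at 0.86 ± 0.0772 with a probe set mean of 0.21, and IL6 at 0.45 ± 0.0853. IL6 lay between 5.91 and 6.69 in all 8 arrays.

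Interferon-stimulated genes split: 15 of 29 were higher and 10 lower, 10 and 9 of them strongly. ISG15, a ubiquitin-like modifier, read 8.59, 8.48, 8.72 and 8.59 in MCF10A and 10.79, 10.83, 10.83 and 10.72 in MDA-MB-231, a difference of 2.20 ± 0.0472. IFIT2, which binds viral RNA, was higher by 2.68 ± 0.0751 and OAS2, a maker of 2-5A, by 2.14 ± 0.15 with a probe set mean of 0.74. OAS1, of the same enzyme family, was lower at -2.60 ± 0.141, CMPK2, a mitochondrial nucleotide kinase, at -2.71 ± 0.11, and IFIH1, the RNA sensor MDA5, at -2.54 ± 0.0733 (probe set mean -1.69). Members of one family thus stood on both sides.

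Antigen presentation genes differed in both directions. Of 22, 10 were higher, 5 of them strongly, and 7 lower, none strongly, or 8 and 10 with ribosomal centring. The class II genes HLA-DMA and HLA-DRA, which load and present peptides to helper T cells, were higher by 3.05 ± 0.161 and 1.67 ± 0.198, and CD74, the invariant chain, by 1.61 ± 0.151 with a probe set mean of 0.62. HLA-DMA read 4.54, 4.57, 5.01 and 4.87 in MCF10A and 7.75, 7.88, 7.85 and 7.71 in MDA-MB-231. Of class I, HLA-B was lower at -0.50 ± 0.0391 (probe set mean -0.21), the peptide transporter TAP1 at -0.50 ± 0.0404, and NLRC5, the regulator of class I genes, at -0.77 ± 0.0769. The HLA genes vary between people and resemble each other, so their probe sets may read alleles unequally.

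Cancer-testis genes, which adult tissues other than the germ line keep silent, were higher in 12 and lower in none of 18 members with a value, 7 of them strongly. SPANXB1 read 4.10, 3.97, 4.72 and 4.21 in MCF10A and 11.34, 11.53, 11.44 and 11.43 in MDA-MB-231, a difference of 7.185 ± 0.126 (adjusted p = 4.94e-17). MAGEA6, a cofactor of ubiquitin ligases, read 4.25, 4.38, 4.68 and 4.49 against 10.92, 10.83, 10.79 and 10.87, a difference of 6.40 ± 0.0712. SSX1, a germ line gene known from the fusions of synovial sarcoma, differed by 5.38 ± 0.122. Each of these genes has near-identical relatives, so the signal may come from more than the named copy. The 6 members without a call lay between -0.115 and 0.1225. With arrays centred on ribosomal protein genes, 9 were called higher and 1 lower.

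Targets of p53 were lower. Of 24, 19 were lower, 13 of them strongly, and 2 higher, with a median of -1.08. CDKN1A, the cell cycle inhibitor p21, read 10.95, 11.11, 11.11 and 11.06 in MCF10A and 9.11, 9.17, 8.98 and 9.01 in MDA-MB-231, a difference of -1.99 ± 0.0508 (adjusted p = 4.54e-15). SPATA18, which acts in the clearing of mitochondria, differed by -4.775 ± 0.131 with a probe set mean of -2.81, FAS, a death receptor, by -3.375 ± 0.0553, and TP53I3, a quinone reductase, by -3.06 ± 0.0496. TP53I3 stood between 11.74 and 11.81 in MCF10A and between 8.63 and 8.79 in MDA-MB-231. BAX, a killer protein of mitochondria, and PPM1D, a phosphatase that shuts p53 off, were higher, by 0.54 ± 0.0843 and 0.29 ± 0.0444 (probe set mean 0.17).

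Mitotic genes were higher by small steps. Of 30, 24 were higher, 9 of them strongly, and 2 lower, with a median of 0.49 that stayed at 0.33 after centring on ribosomal protein genes. CDCA8, a part of the chromosomal passenger complex, read 9.84, 9.81, 9.86 and 9.79 in MCF10A and 11.38, 11.70, 11.49 and 11.42 in MDA-MB-231, a difference of 1.67 ± 0.0662. NDC80, of the outer kinetochore, was higher by 1.60 ± 0.0506, and KIF2C, a kinesin that frees wrongly attached microtubules, by 1.46 ± 0.0379. HMMR, a spindle protein and hyaluronan receptor, went the other way at -1.96 ± 0.091, and NEK2, a centrosome kinase, at -0.22 ± 0.0472.

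Cyclins and cell cycle inhibitors differed gene by gene, with 12 of 25 higher and 8 lower, or 9 and 12 with ribosomal centring. CCND2, cyclin D2, read 12.26, 12.24, 12.25 and 12.27 in MCF10A and 8.0, 8.03, 7.88 and 7.86 in MDA-MB-231, a difference of -4.31 ± 0.0468 with a probe set mean of -2.73, while CCND1 of the same family was higher, as given above. CCNE1, cyclin E1, was lower at -1.61 ± 0.0489 (probe set mean -0.77). CDKN2D, an inhibitor of CDK4 and CDK6, was higher by 2.555 ± 0.0966 (probe set mean 1.245), but stood at -0.065 (adjusted p = 0.579) without shared probe sets. RBL1, p107 of the retinoblastoma family, was higher by 0.94 ± 0.0695. CDKN2A, whose locus both lines are known to have lost, lay between 6.16 and 6.48 in all arrays, with 0.18 ± 0.0645 (adjusted p = 0.0274) and a probe set mean of 0.11. The CDKN2A call did not hold with that mean, without shared probe sets, with ribosomal centring (0.0175), or without any 1 of 4 single arrays (replicates B and D of MCF10A, A and C of MDA-MB-231; 0.14 to 0.17).

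Some of the differences lie in pathways that the media address directly. Hydrocortisone, a glucocorticoid, and cholera toxin, which raises cyclic AMP, were in the MCF10A medium. Of 19 listed glucocorticoid targets, 15 were lower in MDA-MB-231, 7 of them strongly, and 4 higher, with a median of -0.87. FKBP5, a chaperone of the glucocorticoid receptor and a standard readout, read 13.11, 13.13, 13.16 and 13.07 in MCF10A and 11.16, 11.01, 11.16 and 11.12 in MDA-MB-231, a difference of -2.005 ± 0.0379 (adjusted p = 1.2e-16). TSC22D3, or GILZ, differed by -0.68 ± 0.0457 with a probe set mean of -0.32, TFCP2L1, a CP2-type factor, by -3.96 ± 0.0975, ANGPTL4, an inhibitor of lipoprotein lipase, by -3.81 ± 0.048 and CEBPD, a factor of acute phase genes, by -2.975 ± 0.0477. ERRFI1, a feedback inhibitor of EGFR, was higher by 1.76 ± 0.0459, KLF15 by 0.93 ± 0.155 (probe set mean 0.495) and KLF9 by 0.71 ± 0.0497 (probe set mean 0.31). The part of hydrocortisone in these values was not tested.

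Genes of the cyclic AMP response were lower in 9 and higher in 3 of 16 members, with a median of -0.33. RGS2, which turns G protein signals off, was lower at -2.49 ± 0.045, SIK1, a salt-inducible kinase, at -2.45 ± 0.0524 (probe set mean -1.17; 0.105 without shared probe sets, adjusted p = 0.211), and ID3, an inhibitor of differentiation factors, by -2.84 ± 0.0475. Of the members called higher, CREM differed by 0.42 ± 0.0613, at 8.63 to 8.73 in MCF10A and 9.05 to 9.21 in MDA-MB-231. Its other probe sets ran from -0.1425 to 1.6725. ATF3, a stress factor, was higher by 1.19 ± 0.09 (probe set mean 0.40), but stood at 0.0575 and was not called without shared probe sets. PPARGC1A, a coactivator of mitochondrial genes, was higher by 1.17 ± 0.113 (probe set mean 0.66). The part of cholera toxin in these values was not tested.

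Cholesterol synthesis genes were lower in MDA-MB-231. Of 19, 16 were lower, 8 of them strongly, and 1 higher, with a median of -0.83. SQLE, squalene epoxidase, read 12.51, 12.57, 12.56 and 12.53 in MCF10A and 9.50, 9.50, 9.40 and 9.36 in MDA-MB-231, a difference of -3.10 ± 0.0415 (adjusted p = 2.25e-18). HMGCS1, which makes HMG-CoA, was lower at -2.36 ± 0.0509, and MSMO1, a sterol demethylating oxidase, at -1.98 ± 0.0412. SREBF1, a master regulator of lipid genes, was the member called higher, at 0.29 ± 0.0628 with a probe set mean of 0.07, a call lost with that mean and with ribosomal centring (0.13). The serum in the media differed in kind and share, and its part in these values was not tested.

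Of 24 glycolysis genes, 8 were higher and 11 lower, 2 and 1 of them strongly. Calls made up 79.17% of the list beside 56.04% over all genes, and strong calls 12.5% beside 12.96%. The median size of a difference was 0.26 beside 0.205 over all genes, so in size the list was close to genes in general. ENO2, the enolase of neurons, read 5.37, 5.53, 5.26 and 5.36 in MCF10A and 9.23, 9.57, 9.34 and 9.39 in MDA-MB-231, a difference of 4.00 ± 0.127. SLC2A1, the glucose carrier GLUT1, was higher by 1.20 ± 0.0375 with a probe set mean of 0.63, and stood at 0.0675 without shared probe sets (adjusted p = 0.518). HK2, hexokinase 2, was higher by 0.845 ± 0.057, but its 2 other probe sets differed by -0.39 and -0.315, for a probe set mean of 0.05 that was not called. LDHB was not called (-0.01, adjusted p = 0.753), but was called lower with ribosomal centring (-0.17). ARRDC4 and TXNIP, arrestins that respond to glucose and limit its uptake, split: ARRDC4 was lower at -1.34 ± 0.0493 and TXNIP higher by 0.83 ± 0.0329. ALDOC, aldolase C, and PFKM, muscle phosphofructokinase, were lower at -0.87 ± 0.0764 and -0.675 ± 0.0336.

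In serine and one-carbon metabolism, 7 of 13 genes were higher and 4 lower, or 5 and 6 with ribosomal centring. ALDH1L2, a mitochondrial folate enzyme that makes NADPH, read 9.74, 9.50, 9.61 and 9.55 in MCF10A and 3.55, 3.70, 3.26 and 3.17 in MDA-MB-231, a difference of -6.18 ± 0.104 with a probe set mean of -2.90. MTHFD2, of the same pathway, was lower at -0.84 ± 0.038. CTH, which makes cysteine from cystathionine, was higher by 2.345 ± 0.0543. PHGDH, the first enzyme of serine synthesis, was not called, at 8.94, 9.0, 9.07 and 8.96 against 8.92, 8.92, 8.87 and 8.82, a difference of -0.11 ± 0.0457 (adjusted p = 0.052). PHGDH was called lower in 7 alternatives, with values from -0.27 to -0.11.

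NRF2 targets and glutathione genes were lower in 14 and higher in 8 of 25 members, with a median of -0.28. The detoxifying enzyme GSTP1 read 13.69, 13.62, 13.66 and 13.70 in MCF10A and 10.73, 10.72, 10.76 and 10.75 in MDA-MB-231, a difference of -2.93 ± 0.0348 (adjusted p = 5.97e-19). The aldo-keto reductases AKR1C1 and AKR1C2 were lower at -2.625 ± 0.0612 and -3.16 ± 0.0669, with probe set means of -1.03 and -1.86. These near-identical genes share probes, and without shared probe sets AKR1C1 stood at -0.20 (adjusted p = 0.119) and AKR1C2 at 0.21 (adjusted p = 0.0503). GPX3, a secreted glutathione peroxidase, was higher by 3.12 ± 0.0977, SLC7A11, the cystine carrier, by 1.17 ± 0.0487, and TXNRD1, thioredoxin reductase, by 1.08 ± 0.036 with a probe set mean of 0.53.

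By contrast, 32 genes of oxidative phosphorylation had 11 higher, 11 lower and no strong call (7 and 20 called with ribosomal centring), from -0.78 for NDUFB10, of complex I, to 0.49 for ATP5MC1, of ATP synthase. Of 44 listed cytosolic ribosomal protein genes, 31 had a value: 17 were higher, 4 lower and none strongly called either. Their differences ran from -0.185 for RPL3 to 0.37 for RPL14, with a median of 0.09. RPL14 stood at 0.1175 without shared probe sets and was not called. The alternative centring used the median of 56 ribosomal protein genes, a wider set than this list. Under it the calls of the list turned to 7 higher and 15 lower, with a median of -0.07. The background share of strong calls is 13% over all genes. Called members made up 68.75% of the oxidative phosphorylation list and 67.74% of the ribosomal list, beside 56.04% over all genes.

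**Figure D4:**
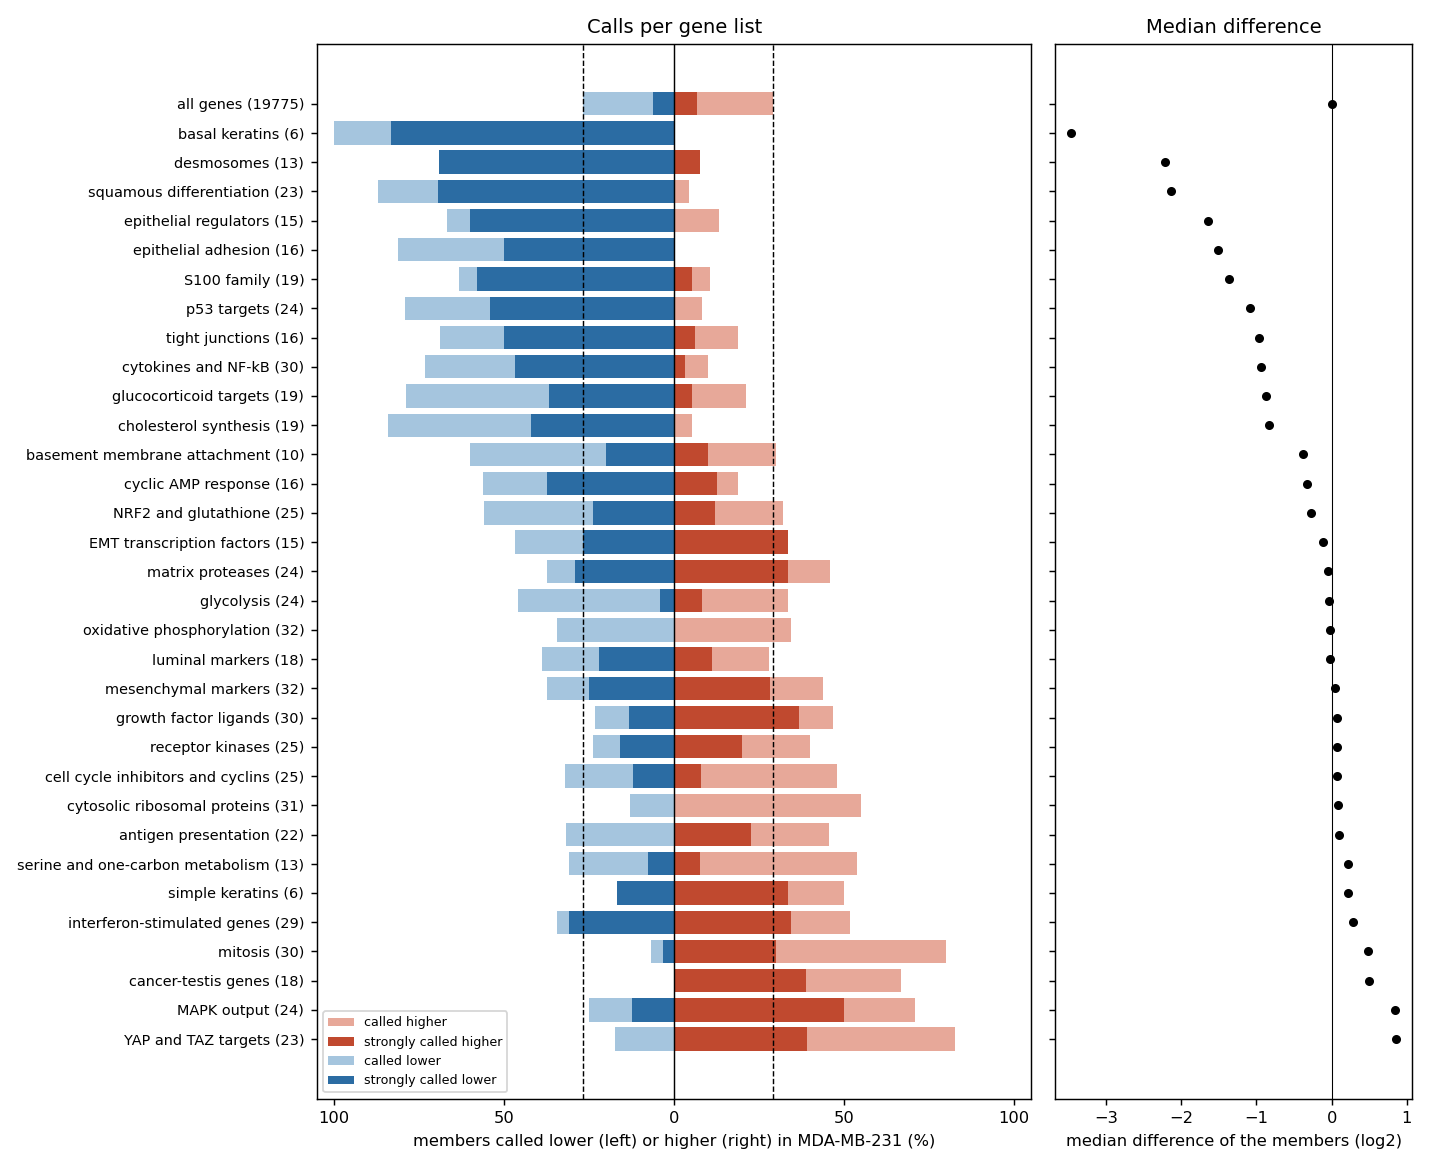
Share of the members of each gene list called lower (blue, left) or higher (red, right) in MDA-MB-231, dark for strong calls, with the number of members in brackets, and the median difference of the members (right panel, log2). Dashed lines mark the shares over all genes, 26.8% lower and 29.2% higher; lists are ordered by their median, from basal keratins at -3.46 to YAP and TAZ targets at 0.855.

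Markers of the types of mammary cell were read for both lines. Of 7 basal or myoepithelial markers with a value, 5 were lower in MDA-MB-231 and 1 higher, and their mean per array ran from 10.31 to 10.45 in MCF10A and from 7.24 to 7.36 in MDA-MB-231. The member called higher was MYLK, myosin light chain kinase, at 5.84, 5.93, 6.16 and 6.06 against 9.52, 9.50, 9.45 and 9.47, a difference of 3.49 ± 0.0672 with a probe set mean of 1.16. Of 13 luminal markers, 4 were higher and 5 lower, with array means of 7.94 to 7.98 and 7.87 to 7.97. Called members were 69.23% of this luminal list, beside 56.04% over all genes. The largest differences in the basal list were those of KRT14, CDH3 and KRT5, all lower in MDA-MB-231. MYLK went the other way, and LAMB3, at -0.99, still read 11.87 to 12.33 in MDA-MB-231. The basal markers KRT17, TP63 and COL17A1 had no value. The luminal list had members far apart in both directions, from -4.75 for MUC1 to 7.57 for KRT19.

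Mean values of markers of other cell types lay on both sides of the array medians of all probe sets, which were 6.17 to 6.22. Called members made up 55.56% of the fibroblast, 50% of the leukocyte, 33.33% of the endothelial and 25% of the melanocyte list. Over all genes the share was 56.04%, so none of these lists exceeded it. Fibroblast markers (5 of 9 lower, none higher) had array means of 6.37 to 6.49 in MCF10A and 5.60 to 5.69 in MDA-MB-231; FAP, a serine protease of activated fibroblasts, was lower at -4.20 ± 0.107, and COL1A1 at -1.66 ± 0.109 with a probe set mean of -0.59. Endothelial markers (2 of 6 higher, or 1 higher and 1 lower with ribosomal centring) had means of 5.75 to 5.85 and 6.015 to 6.13, with KDR, a VEGF receptor, higher by 1.085 ± 0.0972. Leukocyte markers (2 of 6 higher and 1 lower, or 1 and 3 with ribosomal centring) had means of 5.535 to 5.65 and 5.205 to 5.30. PTPRC, the CD45 that defines leukocytes, was near the bottom at 3.78 to 3.87 and 4.00 to 4.29 (called higher at 0.33, probe set mean 0.094, with the call lost without shared probe sets and with ribosomal centring), while CD14, a receptor of bacterial lipid, was lower at -2.52 ± 0.0801. The 4 melanocyte markers had means of 6.255 to 6.30 in MCF10A and 6.88 to 7.01 in MDA-MB-231. Only MITF, a pigment cell factor, was called, higher by 2.43 ± 0.0391, at 7.92 to 8.04 against 10.36 to 10.44. Its probe set mean was 1.52, and 1 of its 2 other probe sets stood at -0.025. None of 4 adipocyte markers was called. Both cultures are cell lines, and the part of other cells in these values was not tested.

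The arrays with 2DG gave another reading of the same lines, and its group means have no array in common with those on vehicle. The calls are not independent of each other. The same limma fit gave both sets of calls, with a residual spread taken from vehicle and 2DG arrays together. The probe set of each gene was also chosen by its mean over all these arrays. With 2DG, 59.5% of genes were called between the lines. Of the 1337 genes strongly higher on vehicle, 1231 (92.07%) were called with the same sign, and of the 1225 strongly lower, 1169 (95.43%); 53 and 25 were called with the opposite sign. SERPINB5 differed by -9.505 with 2DG, CDH1 by -8.21, KRT14 by -7.60, EDIL3 by 9.63, KRT19 by 6.415 and ANKRD1 by 7.20. The reading is not free of the treatment: the difference between the lines itself changed with 2DG for 45.8% of genes, and by at least 4-fold for 1.55%. The actin ratio was also higher in the MDA-MB-231 arrays with 2DG, at 0.97 to 1.13, than in the MCF10A arrays with 2DG, at 0.50 to 0.65. The values with 2DG given here are not adjusted for this ratio.

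**Figure D5:**
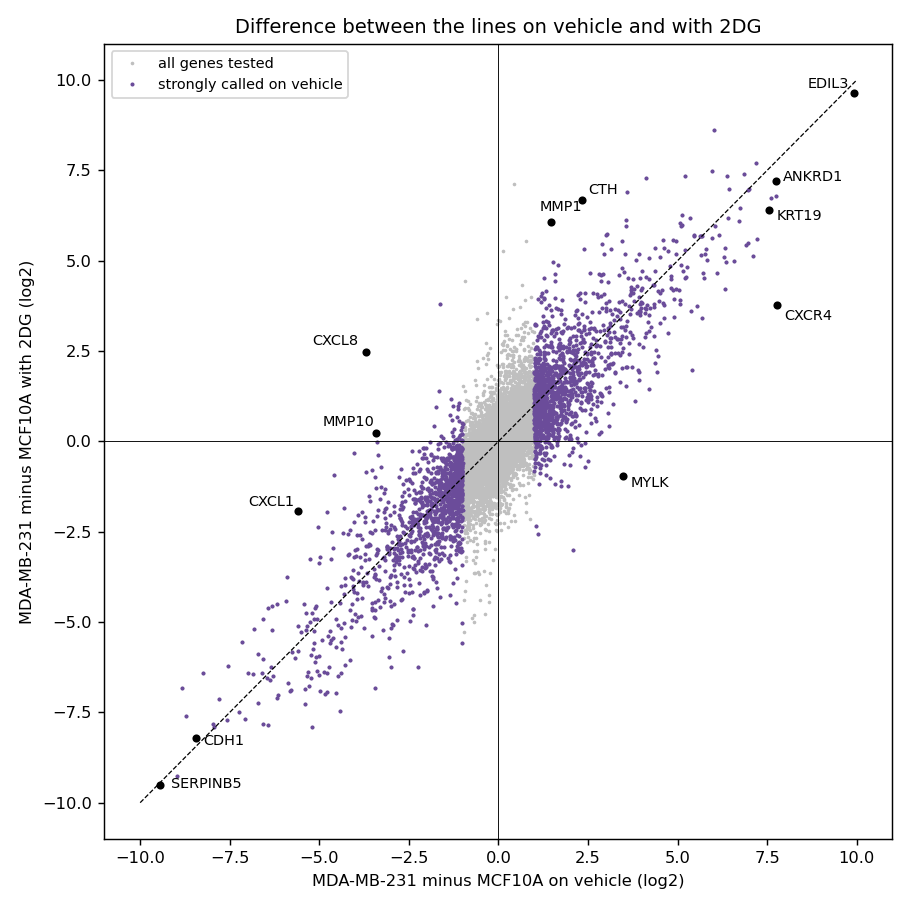
Difference between the lines with 2DG (vertical axis, log2) against that on vehicle (horizontal axis, log2) for 19775 genes; purple marks the 2562 genes strongly called on vehicle, black the genes with names, and the dashed line equal differences. SERPINB5, CDH1 and EDIL3 lie near the line, and CXCL8 moved from -3.69 on vehicle to 2.48 with 2DG.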

How the data were processed

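RNA from 16 cultures was read on Affymetrix U133 Plus 2.0 arrays. The deposited values are log2 RMA values made by the authors, per the submitters' processing notes; the version of the software is not given in the sources used here. RMA subtracts background, equalizes the distribution of all arrays and gives no detection call. The table holds 54675 probe sets, of which 41091 had 1 gene in the platform annotation, 1801 several and 11777 none; control probe sets and those with several genes or none were left out. Symbols were updated to RefSeq by Entrez number for 41037 probe sets, and the probe set with the highest mean over 16 arrays stood for a gene, which gave 19775 genes.

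The means of all 4 groups were estimated by limma (version 3.58.1, under R 4.3.3) with 12 residual degrees of freedom and Benjamini-Hochberg adjustment over all genes, after the script was tested on simulated data. Per the series' design text the replicates are independent and were handled in parallel, and p-values measure the spread between them. The gene lists, and the genes named, were chosen with earlier results of these data known. Named were the 12 largest differences each way among called genes without overlap, up to 3 called members per list and direction, and genes fixed by name; 13 further genes were chosen after their values were seen. Alternatives were other fits, filters, probe set rules and scalings, and leaving out each array. Genes on a list without a value were not analysed here.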

Additional observations from a re-analysis of the deposited data

Results flagged for a closer look

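Among 450 sets of 4 array values looked at, 22 had 1 array set apart from the other 3 by Dixon's ratio (over 0.829), where chance gives about 1 in 20. Replicate B of MDA-MB-231 held 6 of them: the actin ratio at 1.09, the GAPDH ratio at 0.40, ANKRD1 at 11.24, ARMCX1 at 10.94, KRT8 at 12.07 and ZEB1 at 11.37. In the other MDA-MB-231 arrays, ATP5MC1 (11.91), DST (11.53) and SPDEF (8.63) stood apart in replicate D, FGFR3 (6.28) and RGS2 (8.44) in replicate A, and BTC (3.97) in replicate C. In MCF10A these were HMGCS1 (10.82), MYC (12.72), PFKM (11.32), TXNRD1 (11.36) and ARMCX6 (5.88) in replicate D, ALDOC (8.26) and COL7A1 (7.80) in replicate B, AKR1C2 (11.01) and DSC3 (10.75) in replicate C, and GATA3 (9.93) in replicate A.

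For 17 named genes the difference between the lines changed by at least 4-fold with 2DG, by limma's interaction term with an adjusted p under 0.05. It became more positive for CXCL8 (by 6.17), MMP1 (4.62), CTH (4.35), CXCL1 (3.65), MMP10 (3.63), PLAT (3.22), ADAMTS1 (3.16), MMP9 (2.675), CCND2 (2.475), KIF2C (2.175) and S100A8 (2.005). It became more negative for MYLK (-4.45), CXCR4 (-4.02), S100A4 (-2.27), FKBP5 (-2.14), ROR1 (-2.10) and COL7A1 (-2.02).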

How the results depend on the processing

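Of 223 named genes, 192 kept their direction and their side of the threshold in every alternative run that gave them a value. Genes with only shared probe sets, such as CDH1, CD24 and VIM, had no value without those. Centring on ribosomal protein genes raised the count of genes called lower to 9518 and turned CLDN12 to -0.02. The mean of all probe sets turned DST to -0.06. Without shared probe sets, DST stood at -3.535, AKR1C2 at 0.21, CDKN2D at -0.065, IL1A at 0.0875, ITGB4 at 0.095, MERTK at -0.04 and SIK1 at 0.105; another probe set then stands for the gene. Leaving out 1 array at a time gave 5602 to 5743 genes called higher and 5114 to 5335 lower. The replicate letters did not pair the samples between the lines on vehicle, where same-letter correlations of deviations ran from -0.0638 to 0.0307. Between vehicle and 2DG they ran from 0.0401 to 0.0877 in MCF10A, where unlike letters gave -0.1174 to 0.0686. In MDA-MB-231 the same-letter values between vehicle and 2DG ran from -0.0992 to 0.0194. With the replicate letter as a block, 5734 genes were called higher and 5282 lower, and CD44 was no longer called. The other fits, filters and scalings kept the counts within 1.5 times. The genes behind the counts changed more: with the mean of all probe sets, 1930 of the 2562 strongly called genes were strong again. Without shared probe sets, 2203 of them had a value and 1968 were strong again. No adipocyte marker passed the filter on dim genes, which gave no median there. The number of arrays limits the precision, and near the bottom of the scale a low value cannot be told from background.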
